A study of Mus musculus with 4 samples.

Results

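The genes of the proteasome were examined in bone marrow-derived macrophages (BMDMs). The members were all rows whose symbol is Psm, a letter from a to g and a digit, and 51 of the 16375 genes in the table matched. RNA sequencing covered 4 groups with 1 library each. WT BMDMs were left untreated (WT control) or given 500 µM butyrate for 24 h (WT butyrate), and BMDMs lacking the long noncoding RNA lncLy6c were handled in the same way (LNCKO control and LNCKO butyrate). Butyrate is a short-chain fatty acid made by gut bacteria. Per the study's methods, bone marrow cells were differentiated with macrophage colony-stimulating factor and the knockout was made by CRISPR-Cas9. The methods describe the mice as young, male or female, and C57BL/6, with lncLy6c-deficient mice on C57BL/6J. The sex and age behind each library, and whether marrow was pooled, are not given in the sources used here. With no replicate in any group, no difference between groups was tested. Intervals given with ratios are exact 95% intervals that cover counting error only and say nothing of the spread between cultures.

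The proteasome degrades proteins tagged with ubiquitin. Its barrel-shaped core, the 20S particle, is built from rings of alpha subunits (Psma genes), which form the gate, and rings of beta subunits (Psmb genes), of which Psmb5, Psmb6 and Psmb7 cut the substrate. In immune cells and under interferon gamma, Psmb8, Psmb9 and Psmb10 take the places of Psmb5, Psmb6 and Psmb7 in newly built cores, and the resulting immunoproteasome, together with the PA28 activator encoded by Psme1 and Psme2, is known for supplying peptides to MHC class I. The 19S cap, made of ATPases (Psmc genes) and non-ATPases (Psmd genes), recognises, unfolds and feeds in the tagged protein.

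Where 4 values are listed below, they stand in the order WT control, WT butyrate, and then the control and butyrate libraries of LNCKO. By role, the members comprised 31 constitutive subunits, 5 immunoproteasome genes (Psmb8, Psmb9, Psmb10, Psme1 and Psme2), the other activators Psme3 and Psme4, 7 assembly chaperones and the inhibitor Psmf1. The constitutive subunits were 7 alpha subunits, 4 structural and 3 catalytic beta subunits, 6 ATPases and 11 non-ATPases. The symbol rule also took in Psmc3ip and Psme3ip1, which are not subunits, and Psme2b, a copy of Psme2. Psma8, the testis alpha subunit, had 79, 67, 34 and 54 fragments, and Psmb11, the thymic beta subunit, had 0, 0, 4 and 0. These 2 genes fell below the filter of a mean of 0.1 FPKM (fragments per kilobase per 1000000 fragments), which the other 49 members passed. The library totals recovered from the FPKM were 53363945 to 65521714 fragments.

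The labels were checked against markers. Summed macrophage markers lay between 561 and 590 FPKM in the 4 libraries, and 8 of 8 were present. Genes of other cells were present as well: summed neutrophil and precursor markers were 2664, 3077, 2324 and 2237 FPKM, and summed B cell markers 209, 164, 213 and 216 FPKM. Summed T and NK cell, dendritic cell and stromal markers ranged from 2.45 to 19.2 FPKM per list, and erythroid markers were 5.93, 6.64, 22.6 and 64.6 FPKM. Y-linked genes summed to 0.136 and 0.0657 FPKM in the WT libraries and to 10.3 and 11.5 FPKM in the LNCKO libraries, so sex and genotype cannot be told apart. These sums add FPKM that are scaled by the whole gene span, so genes with short spans weigh most in them. They can be read between libraries but not as relative amounts of the cell types. None of the marker genes in the table was at 0 in every library. In bulk RNA, fewer cells of a type and less RNA per cell cannot be told apart. lncLy6c itself was not analysed here, so the knockout was not checked.

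The promoter windows of the 3 inducible catalytic genes and of Psme1 are shown because these genes did not all move in the same direction with butyrate. Each runs from 250 bases before to 50 bases after the RefSeq start (RefSeq, GRCm38.p6), 5′ to 3′ on the strand of the gene. Capitals mark matches to the searched letters, which are the gamma-activated site core TTCNNNGAA in Psmb8, the CCAAT box on the opposite strand in Psmb9 and the interferon-stimulated response element core, GAAA repeated after a gap of 2 bases, on the opposite strand in Psme1. The window of Psmb8 is chr17:34197945-34198244 on the plus strand, that of Psmb9 chr17:34187281-34187580 on the minus strand, that of Psmb10 chr8:105938343-105938642 on the minus strand and that of Psme1 chr14:55578244-55578543 on the plus strand.
Psmb8: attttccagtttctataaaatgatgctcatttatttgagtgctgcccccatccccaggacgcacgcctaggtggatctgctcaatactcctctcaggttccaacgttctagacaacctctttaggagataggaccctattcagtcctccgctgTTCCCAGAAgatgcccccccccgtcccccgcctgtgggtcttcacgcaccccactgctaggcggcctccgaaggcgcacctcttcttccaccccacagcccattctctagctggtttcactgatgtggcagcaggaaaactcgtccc
Psmb9: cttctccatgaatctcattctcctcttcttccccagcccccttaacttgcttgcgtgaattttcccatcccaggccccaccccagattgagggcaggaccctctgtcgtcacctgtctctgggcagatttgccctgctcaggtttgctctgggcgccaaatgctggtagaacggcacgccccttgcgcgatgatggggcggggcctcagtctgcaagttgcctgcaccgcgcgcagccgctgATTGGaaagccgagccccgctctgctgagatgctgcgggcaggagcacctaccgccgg
Psmb10: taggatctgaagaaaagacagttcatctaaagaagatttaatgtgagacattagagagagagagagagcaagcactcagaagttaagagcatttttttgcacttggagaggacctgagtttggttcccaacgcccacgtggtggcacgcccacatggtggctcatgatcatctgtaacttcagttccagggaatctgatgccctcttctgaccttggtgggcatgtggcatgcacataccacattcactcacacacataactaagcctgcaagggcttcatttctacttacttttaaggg
Psme1: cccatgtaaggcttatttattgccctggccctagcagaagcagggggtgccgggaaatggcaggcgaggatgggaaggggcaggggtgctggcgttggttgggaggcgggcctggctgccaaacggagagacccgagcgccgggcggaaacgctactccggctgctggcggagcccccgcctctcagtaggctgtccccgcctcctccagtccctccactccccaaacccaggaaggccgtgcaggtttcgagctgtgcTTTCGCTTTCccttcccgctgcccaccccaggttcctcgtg

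The match began 97 bases before the start in Psmb8 and 8 bases before it in Psmb9, and lay 9 bases after it in Psme1. The windows of Psmb10 and Psme2 held none of the 4 motifs searched. The search covered both strands and also used the antioxidant response element core TGACNNNGC, the letters bound by NRF1-type factors. Of the 51 members, 43 had a window. Psma8, Psmb1, Psmb2, Psmb7, Psmc3, Psmd3, Psmd7 and Psmg2 had none in the table used. The interferon-stimulated response element core was found in 5 of the 43 windows (11.6%) against 3.44% of all 32851. These were Psmd4, Psmd9, Psmb3, Psmg4 and Psme1, so 1 of the 5 immunoproteasome genes had it. TTCNNNGAA was found in 3 windows (6.98%), those of Psmd2, Psmg1 and Psmb8, against 8.30%. TGACNNNGC was found in 6 of 43 against 12.4%, among them Psmb5 and Psmb6, and CCAAT in 15 of 43 against 37.4%. No match of a motif overlapped a match of another motif, and a match is a description of the sequence, not a binding site. The starts are those of RefSeq, and those of Psmb8, Psmb9, Psmb10 and Psme1 lie inside the wider gene spans of GENCODE M21. Psmb9 shares 275 bases of its window with that of Tap1, the peptide transporter gene that starts on the other strand.

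Of the immunoproteasome genes, Psme1, Psmb8 and Psmb10 stood well above the median of the constitutive subunits in these BMDMs. Psme2 as counted stood below it, but its level is uncertain because of its copy Psme2b. Levels are compared between genes as exon FPKM, that is, fragments per kilobase of exon per 1000000 fragments, averaged over the 4 libraries. Psme1, the alpha chain of PA28, was highest of the subunit genes at 134 exon FPKM, followed by Psmb8 at 97.7. The alpha subunit Psma6 stood at 94.3, the structural beta subunit Psmb4 at 82.9 and the structural beta subunit Psmb2 at 76.5. Psmb10 reached 67.3 and Psmb9 49.4, and their constitutive counterparts Psmb7 and Psmb6 20.5 and 54.8. The median was 35.9 over the 31 constitutive subunits, with a range from 9.69 for Psma3 to 94.3 for Psma6, and Psme2 was at 28.8. Psme2b, which shares 789 of 794 aligned bases with Psme2, was at 227. Fragments of Psme2 could have been assigned to this copy, so the rank of Psme2 is not settled. The ATPases had a median of 43.7 and the non-ATPases one of 28.7. The chaperones were scarcer, with a median of 8.89 and a range from 2.77 for Psmd9 to 20.8 for Psmg4, and the inhibitor Psmf1 was at 5.18. Genes of the same particle, which share a fixed stoichiometry as proteins, thus differed several-fold at the RNA level on this scale. The order depends on the length used: per base of the longest annotated transcript, Psmb8 stood at 173 and Psme1 at 149.

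**Figure D1:**
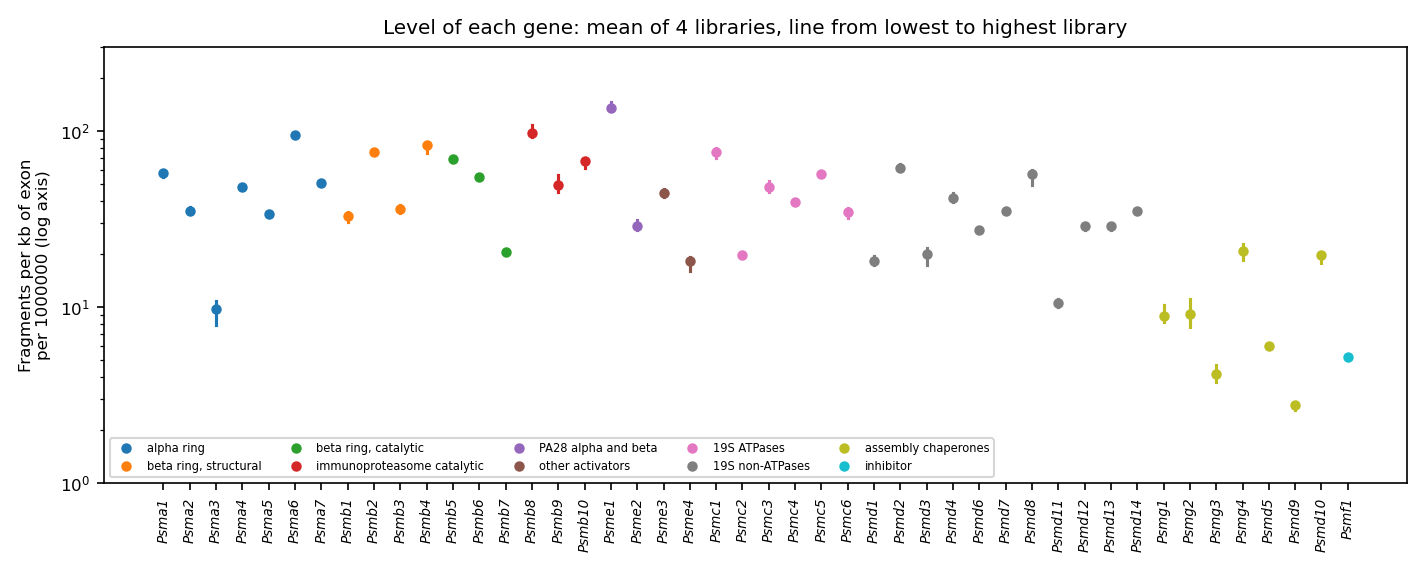
Level of each proteasome gene in fragments per kilobase of exon per 1000000 (log axis), by subunit group; points are means of the 4 libraries and lines run from the lowest to the highest library. Most constitutive subunits lie between the chaperones at the right and Psmb8 and Psme1, which stand at 97.7 and 134. Psme2b, the copy of Psme2, is at 227 and is not plotted.

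The same genes varied little between libraries. The highest library exceeded the lowest by 1.04-fold to 1.37-fold over the 31 constitutive subunits, with a median of 1.09-fold. Psma3 had the widest range of these and Psmd14, the deubiquitinase of the lid, the narrowest. Among the chaperones the median was 1.23-fold and the widest range was 1.45-fold, for Psmg2. WT butyrate was the library farthest from the mean of the other 3 for 29 of the 49 members, or 59.2%, against 47.6% of the 10959 genes tested. It was so for 5 of the 5 immunoproteasome genes and for 14 of 31 constitutive subunits.

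The 5 immunoproteasome genes lie at 3 loci of GRCm38 (GENCODE M21). Psmb8 (chr17:34197721-34201454) and Psmb9 (chr17:34181987-34187764) flank Tap1 in the MHC, Psme1 (chr14:55578123-55581529) and Psme2 (chr14:55587441-55591113) are neighbours, and Psmb10 is at chr8:105935735-105938444. In WT BMDMs, 4 of the 5 immunoproteasome genes were higher with butyrate and Psmb10 was lower. The constitutive subunits scattered around 0, from −0.36 for Psma3 to 0.23 for Psmd3 on the log2 scale. Psmb9 had 28.4 FPKM in WT control and 35.8 in WT butyrate, and 30.1 and 30.9 in the control and butyrate libraries of LNCKO. The WT butyrate library was thus the high one. Of the other 3, WT control was lowest, and the ratio of LNCKO control to WT control was 1.06 (interval 1.03 to 1.09). The ratio of WT butyrate to WT control was 1.26 (interval 1.23 to 1.30). Psmb8 had 84.8, 97.6, 83.9 and 87.5 FPKM in the same order, again highest in WT butyrate, with a ratio of 1.15 (1.13 to 1.17). Psmb10 had 43.0, 38.7, 44.2 and 43.4 FPKM, so that WT butyrate was the lowest library, and its ratio was 0.899 (0.869 to 0.931).

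The PA28 genes were also highest in WT butyrate. Psme1 had 84.6, 94.2, 85.3 and 84.5 FPKM, a WT ratio of 1.11 (1.09 to 1.14). Psme2, the beta chain, had 13.2, 15.1, 13.1 and 13.9 FPKM, a WT ratio of 1.14 (1.08 to 1.20). Psme2 shares 789 of 794 aligned bases with Psme2b, so fragments of the pair could have been assigned to either gene. Psme2 and Psme2b together gave 232, 257, 230 and 242 fragments per 1000000, and the order of the libraries was the same as for Psme2 alone. Most fragments of this sum were those of Psme2b. All 837 bases of Psme2b lie within Gm12185 on the same strand, so some of its fragments are uncertain in origin too.

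**Figure D2:**
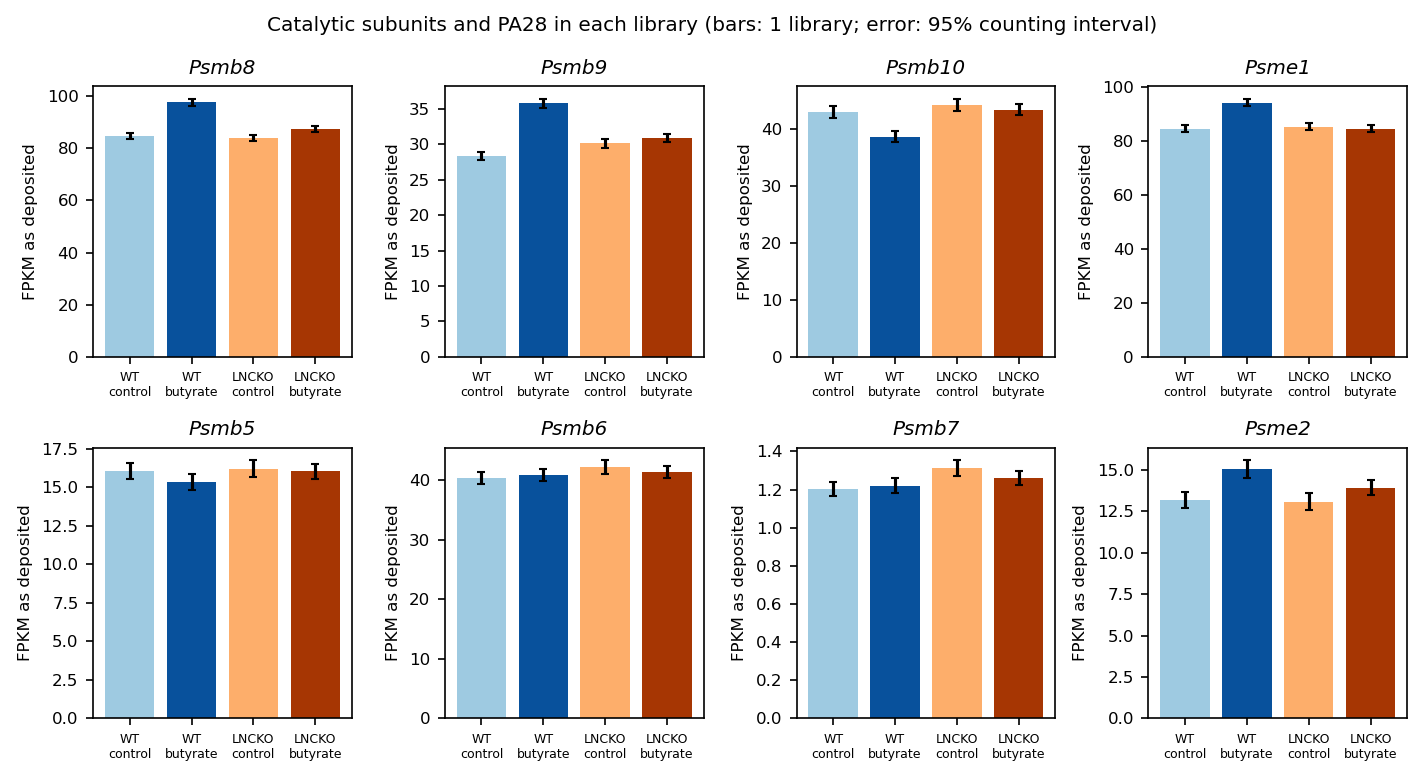
FPKM of the catalytic subunits and the PA28 genes in each library (bars from 0, 1 library per bar); error bars are 95% intervals for counting error. Psmb8, Psmb9, Psme1 and Psme2 are highest in WT butyrate, Psmb10 is lowest there, and Psmb5, Psmb6 and Psmb7 vary by no more than 1.09-fold.

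A gene was called where its change in log2 of FPKM + 0.01 was past 0.32 in either direction. With butyrate in WT, 2 of the 49 members were called, while 19.8% of all 10959 genes were (9.12% higher and 10.7% lower). Of the 7881 genes with at least 1000 fragments on average, a depth that most members reached, 11.2% were past the limit. The 2 members were Psmb9, higher by 0.33 on the log2 scale, and Psma3, an alpha subunit, lower. Psma3 had 1.82, 1.41, 1.93 and 1.79 FPKM, lowest in WT butyrate, and fell by 0.36 on the log2 scale. A gene on the opposite strand that is not in the table overlaps Psma3 by 4733 bases, so some of its fragments are uncertain in origin. When the libraries were rescaled by their median ratio, Psma3 was no longer past the limit. Psmg1, Psmg2 and Psmg3 then joined Psmb9.

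As groups, the immunoproteasome genes had a median log2 change of 0.19 with butyrate in WT (−0.15 to 0.33) and the 31 constitutive subunits one of −0.03 (−0.36 to 0.23). The median of all genes tested was −0.05. Of the constitutive subunits 13 were above 0 and 18 below, against 39.3% of all genes above 0, and with the libraries rescaled by their median ratio the group's median was 0.02 with 20 above 0, so their direction was not settled. Of the immunoproteasome genes 4 of 5 were above 0 as deposited and under that scaling, where their median was 0.25. Summed over genes, the 3 immunoproteasome catalytic genes went from 597 to 676 fragments per 1000000 and the PA28 genes from 337 to 376. The 31 constitutive subunits together went from 3364 to 3284 and Psmb5, Psmb6 and Psmb7 together from 231 to 230.

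The WT butyrate library differed from WT control in cell markers too. Of all genes, 39.3% were higher in WT butyrate and 60.7% lower. All 7 B cell markers were lower in WT butyrate, with log2 changes from −0.87 to −0.09, and 5 of 8 macrophage markers were higher, with a median of 0.15. Of 9 neutrophil and precursor markers 6 were higher. The LNCKO libraries differed in markers as well. With butyrate, 3 of 3 erythroid markers past the filter were called higher (median 1.49), against 4.75% of all genes. Of 5 stromal markers past the filter, 5 were above 0 and 4 were called higher (median 0.98). Above 0 were 4 of 7 B cell, 4 of 8 macrophage and 2 of 9 neutrophil and precursor markers. The part of the markers in the subunit changes was not tested in either genotype.

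In LNCKO BMDMs, 0 of the 49 members were called with butyrate, while 8.94% of all genes were (4.75% higher and 4.19% lower). Of the genes with at least 1000 fragments on average, 1.90% were past the limit, so the count of 0 does not set the members apart. The interquartile range of the changes over all genes was 0.17 in LNCKO and 0.27 in WT. The immunoproteasome genes had a median log2 change of 0.04 (−0.03 to 0.09) and the constitutive subunits one of −0.01 (−0.11 to 0.08), with 3 of 5 and 13 of 31 above 0 against 42.2% of all genes. Psmb8 had a ratio of 1.04 (1.02 to 1.06), Psmb9 one of 1.03 (0.998 to 1.05) and Psmb10 one of 0.982 (0.950 to 1.02). Psme1 had a ratio of 0.991 (0.970 to 1.01) and Psme2 one of 1.07 (1.01 to 1.12). Thus Psmb8 and Psme2 were higher in LNCKO butyrate beyond counting error, by less than in WT. The WT change was larger than the LNCKO change by a median of 0.14 on the log2 scale over the 5 genes and differed by −0.00 over the constitutive subunits. Whether the genotypes differ in this response was not tested.

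**Figure D3:**
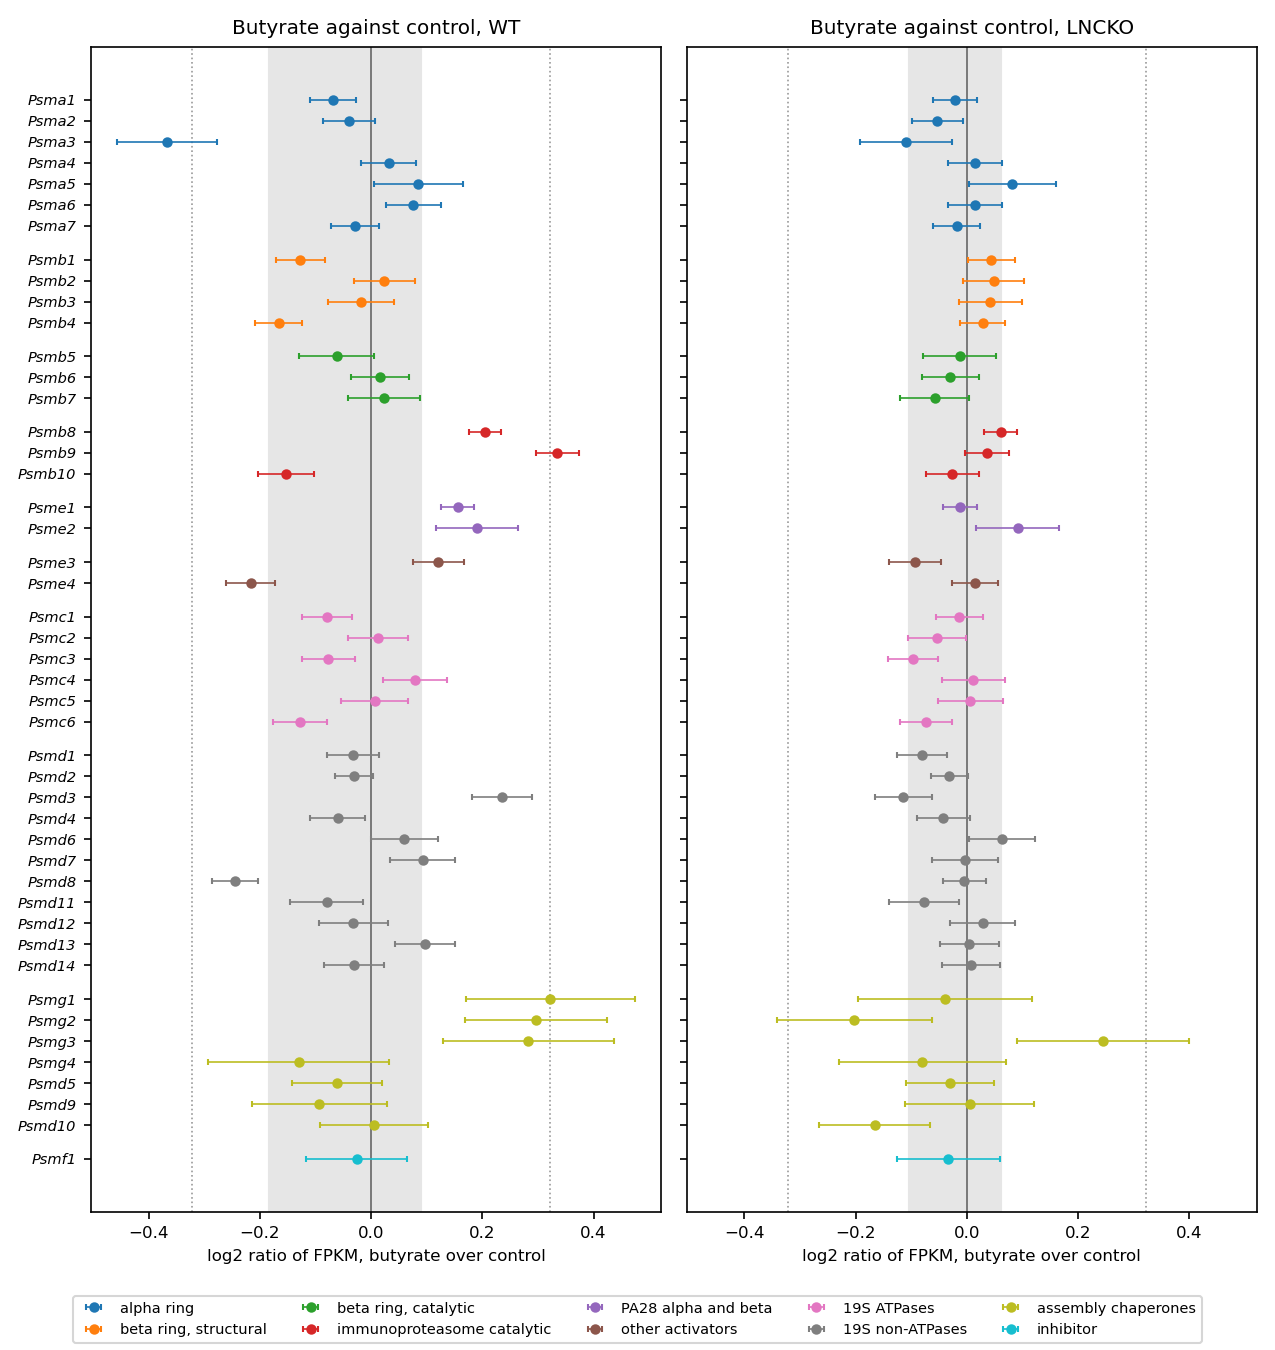
Log2 ratio of FPKM, butyrate over control, for 46 proteasome genes in WT (left) and LNCKO (right), with 95% counting intervals. Grey bands span the middle 50% of all genes tested and dotted lines mark the limit of 0.32; Psmb9 and Psma3 lie past a dotted line in WT, Psmg1 lies on it (past it only without the pseudocount, as plotted), and no gene is past it in LNCKO.

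The share of the inducible gene in each catalytic pair was computed per exon length. Psmb8 made up 57.4% of Psmb8 plus Psmb5 in WT control (interval 56.5 to 58.2) and 61.8% in WT butyrate (60.9 to 62.6), against 56.9% and 58.1% in the LNCKO libraries. Psmb9 made up 45.5% of Psmb9 plus Psmb6 in WT control (44.6 to 46.3), 51.0% in WT butyrate (50.2 to 51.7), and 45.8% and 47.0% in the LNCKO libraries. Psmb10 made up 77.6% of Psmb10 plus Psmb7 in WT control (76.9 to 78.3), 75.4% in WT butyrate (74.7 to 76.2), and 76.6% and 77.0% in the LNCKO libraries. WT butyrate therefore had the highest share for the first pair and the second, and the lowest for the Psmb10 pair. The ratio of inducible to constitutive gene changed with butyrate by 0.27, 0.32 and −0.18 on the log2 scale in WT and by 0.07, 0.07 and 0.03 in LNCKO. These ratios within a library do not depend on library scaling. Some fragments are uncertain in origin: Psmb9 overlaps Tap1 by 212 bases on the opposite strand, and antisense genes that are not in the table overlap Psmb8 by 2139 bases and Psmb10 by 2710. Among the constitutive partners, Psmb7 overlaps Nek6 by 6571 bases on the opposite strand. Whether the counting used strand is not given in the sources used here.

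**Figure D4:**
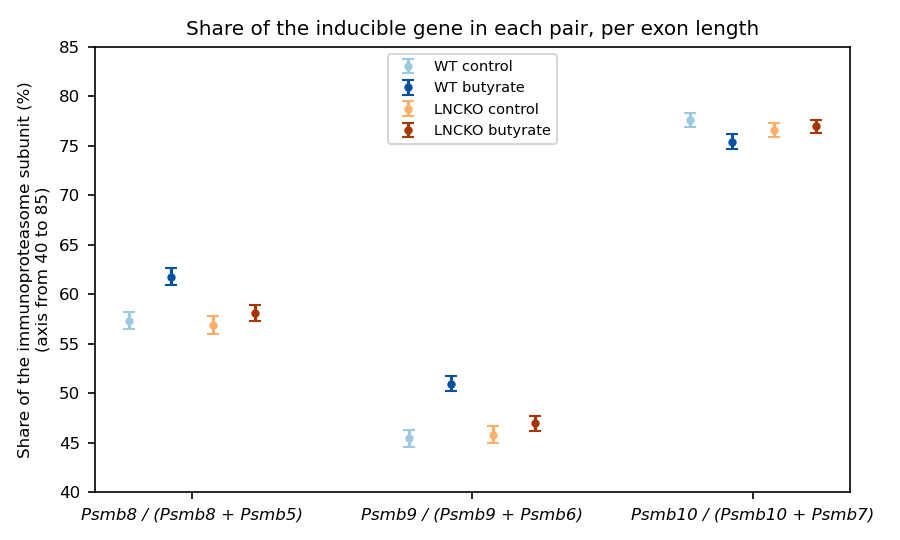
Share of Psmb8, Psmb9 and Psmb10 in each catalytic pair per library, in percent on exon length, with 95% counting intervals (axis from 40 to 85). WT butyrate is highest for Psmb8 (61.8%) and Psmb9 (51.0%) and lowest for Psmb10 (75.4%).

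Within the constitutive 20S core, the structural beta subunits Psmb1 and Psmb4 were lowest in WT butyrate. Psmb4 had 57.5, 51.3, 57.8 and 58.9 FPKM, and Psmb1 had 6.19, 5.67, 6.27 and 6.46. In each case the other 3 libraries lay close together. Psmb1 had a ratio of 0.916 (0.888 to 0.944) in WT and of 1.03 (1.00 to 1.06) in LNCKO. Psmb2 and Psmb3 differed by less with butyrate in WT, at 0.02 and −0.02 on the log2 scale. The catalytic subunits Psmb5, Psmb6 and Psmb7 ranged from −0.06 to 0.02 in WT and from −0.06 to −0.01 in LNCKO. The alpha subunits other than Psma3 ranged from −0.07 for Psma1 to 0.08 for Psma5 in WT.

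In the 19S cap, Psmd3 and Psmd8 stood apart from the rest. Psmd8, a non-ATPase of the lid, had 27.4, 23.1, 28.1 and 28.0 FPKM, lowest in WT butyrate, with a ratio of 0.844 (0.820 to 0.868) in WT and 0.997 (0.970 to 1.02) in LNCKO. Psmd3, a scaffold subunit of the lid, had 6.43, 7.57, 8.06 and 7.45 FPKM, and here WT control was the low library. With butyrate its ratio was 1.18 (1.13 to 1.22) in WT and 0.924 (0.892 to 0.958) in LNCKO. The 6 ATPases ranged from −0.13 for Psmc6 to 0.08 for Psmc4 in WT and from −0.10 for Psmc3 to 0.01 for Psmc4 in LNCKO.

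The other activators differed in opposite directions with butyrate in WT. Psme3, the nuclear PA28 gamma, had 17.3, 18.8, 18.1 and 17.0 FPKM, with a ratio of 1.09 (1.05 to 1.12) in WT and 0.938 (0.908 to 0.968) in LNCKO. Psme4, which encodes PA200, had 1.44, 1.24, 1.48 and 1.49 FPKM and a ratio of 0.861 (0.835 to 0.887) in WT. WT butyrate was the lowest library for Psme4 and the highest for Psme3. Psmf1, the PI31 gene, differed little, with log2 changes of −0.03 in WT and −0.03 in LNCKO.

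Of the assembly chaperones, 3 of the 4 Psmg genes were higher with butyrate in WT. Psmg1 and Psmg2, whose products form a heterodimer that helps to assemble the alpha ring, were higher in WT butyrate by 0.32 and 0.29 on the log2 scale, Psmg1 just under the limit, with intervals of the ratio of 1.12 to 1.39 and 1.12 to 1.34. Psmg3 had one of 1.22 (1.09 to 1.35) and its partner Psmg4 one of log2 −0.13, with a counting interval that spans no change. In LNCKO, Psmg3 was higher as well, with a ratio of 1.18 (1.06 to 1.32), while Psmg2 had 0.869 (0.789 to 0.957). Psmg2 had 1.54 FPKM in WT butyrate and 1.06 in LNCKO butyrate, with both controls between, so that the butyrate libraries held both its highest and its lowest value. Counts were low for this group, 579 to 842 fragments per library for Psmg3, and Psmg3 overlaps a gene on the same strand that is not in the table. The 19S chaperones Psmd5, Psmd9 and Psmd10 had WT changes of −0.06, −0.09 and 0.01 on the log2 scale, and Psmd10, which encodes gankyrin, was at −0.16 in LNCKO. Of the members that are not subunits, Psmc3ip had log2 changes of −0.19 in WT and −0.21 in LNCKO and Psme3ip1 of −0.20 and 0.01.

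Across the 49 members, the butyrate changes of the genotypes were weakly related (Pearson's r = 0.25, Spearman's rho = 0.26), and 31 had the same sign. Over the 31 constitutive subunits, r was 0.21 and 21 had the same sign. The genotypes share no library, so these values describe the likeness of 2 separate pairs of libraries over genes that are not independent. Over all 10959 genes r was 0.066.

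Without butyrate, LNCKO and WT BMDMs differed by small amounts in the proteasome genes. Psmd3 alone of the 49 members was called, at 0.33 on the log2 scale or 25.3% higher (interval of the ratio 1.21 to 1.30), while 10.7% of all genes were called (5.91% higher and 4.84% lower). Of the genes with at least 1000 fragments on average, 3.08% were past the limit. Under a pseudocount of 0.1 or the median-ratio scaling, Psmd3 was not past the limit. The 31 constitutive subunits had a median of 0.06, and 30 of them were above 0 with Psmb2 as the exception, while 56.3% of all genes were above 0 with a median of 0.02. With the libraries rescaled by their median ratio 25 of 31 were above 0. All 17 subunits of the 19S cap were above 0 as deposited, from 0.01 for Psmd7 to 0.33 for Psmd3, and 15 after rescaling. Summed over genes, the 19S subunits gave 1885 fragments per 1000000 in WT control and 2008 in LNCKO control, and the 20S subunits 1479 and 1523. The 5 immunoproteasome genes had a median of 0.01 (−0.01 to 0.09).

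With butyrate, 2 of the 49 members were called between LNCKO and WT, against 19.3% of all genes (10.7% higher and 8.6% lower). Of the genes with at least 1000 fragments on average, 10.6% were past the limit. Psma3 was higher in LNCKO by 0.34 on the log2 scale, and Psmg2 lower, falling by 0.53 to a ratio of 0.690 (0.631 to 0.754). Rescaling by the median ratio left Psma3 under the limit and added Psmg1 to the lower side. The 5 immunoproteasome genes had a median of −0.16 with Psmb9 lowest at −0.21, and Psmb10 was above 0 at 0.17. The constitutive subunits had a median of 0.06, or 0.01 after rescaling, with 25 of 31 above 0 as deposited and 16 rescaled, against 60.9% and a median of 0.05 for all genes. Each genotype comparison shares its libraries with a butyrate comparison above, so these values are not separate evidence. The erythroid and Y-linked markers named above differed between the genotypes in both comparisons. Of the 5 stromal markers past the filter, 5 were below 0 in LNCKO control against WT control, down to −2.16 on the log2 scale. In the butyrate comparison 7 of 7 B cell markers were above 0 and 4 were called higher, and 5 of 9 neutrophil and precursor markers were called lower. The part of these markers in the subunit values was not tested.

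**Figure D5:**
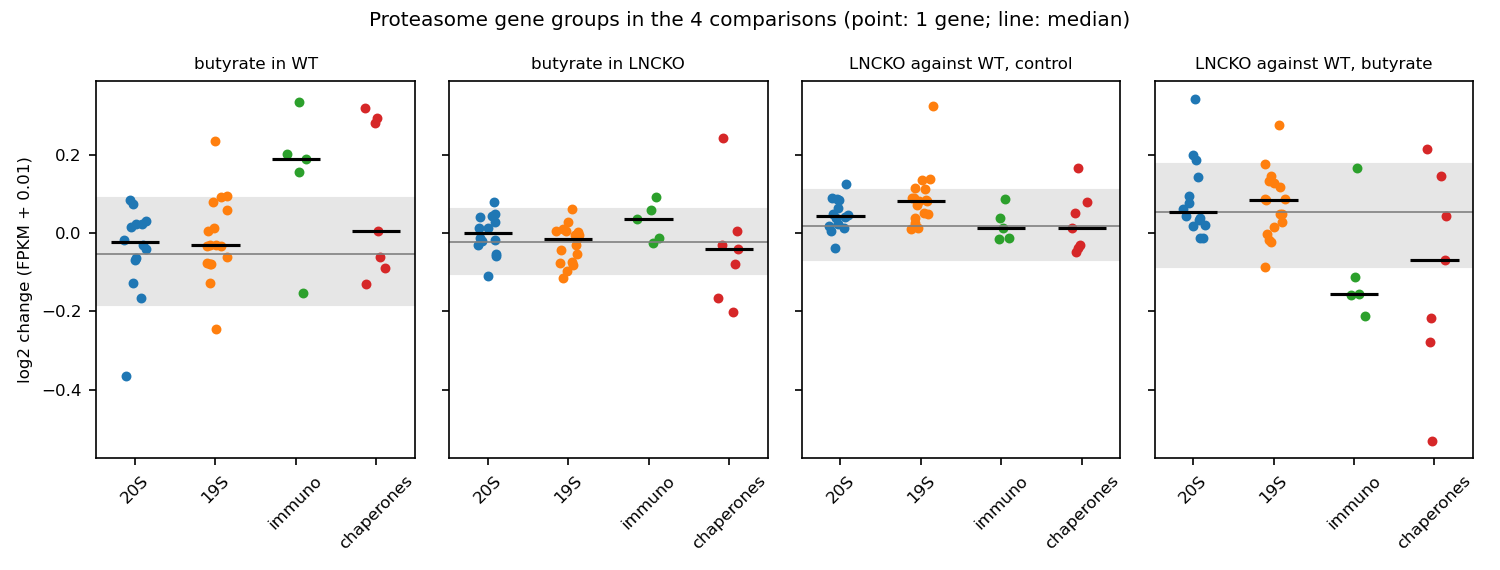
Log2 change (FPKM + 0.01) of the constitutive 20S and 19S subunits, the 5 immunoproteasome genes and the assembly chaperones in the 4 comparisons; points are genes, black lines group medians, and the grey line and band the median and middle 50% of all genes tested. The immunoproteasome median is 0.19 with butyrate in WT and −0.16 for LNCKO against WT with butyrate, and near 0 in the other comparisons.

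Genes that work with the immunoproteasome were read from fixed lists. In the MHC class I presentation list, 0 of 12 genes were called with butyrate in either genotype, against 19.8% of all genes in WT and 8.94% in LNCKO. In WT 7 of 12 were above 0 with a median of 0.03, against 39.3% of all genes and a median of −0.05. In LNCKO 7 of 12 were above 0 as well, with a median of 0.02, against 42.2% of all genes and a median of −0.02. Tap2, the partner of Tap1 in peptide transport, had 15.1, 18.7, 15.1 and 15.4 FPKM. The heavy-chain genes H2-K1 and H2-D1 had WT changes of 0.20 and 0.22 on the log2 scale, Tap1 one of 0.13 and Tap2 one of 0.31. Tapbpl, a peptide editor, was at −0.31, and Nlrc5, the class I transactivator, was at −0.02.

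Of the 12 interferon gamma response genes, 10 were above 0 with butyrate in WT, with a median of 0.14. Of all genes 39.3% were above 0, with a median of −0.05. Irf1, a transcription factor of the interferon response, had 24.2, 27.0, 27.8 and 26.6 FPKM, lowest in WT control. Past the limit were 19.8% of all genes in WT and 8.94% in LNCKO. Cxcl9, a chemokine gene, was past it upwards in both genotypes, with WT and LNCKO changes of 0.67 and 1.37 on the log2 scale. It had only 166, 279, 82 and 267 fragments, and LNCKO control was the low library, at −0.91 against WT control. Jak2, the receptor-associated kinase, was past the limit downwards in WT, at −0.40. In LNCKO 8 of the 12 genes were above 0 with a median of 0.02, against 42.2% of all genes and a median of −0.02.

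Through the NRF1 pathway cells raise proteasome genes when proteolysis is impaired. With butyrate in WT, 1 of its 8 genes that passed the filter was above 0, and the median was −0.12. Of all genes 39.3% were above 0, with a median of −0.05. In this list 1 gene was called higher and 2 lower in WT, against 9.12% and 10.7% of all genes. Nfe2l1, which encodes NRF1, had 11.7, 10.9, 11.9 and 11.0 FPKM, lower with butyrate in both genotypes. Ngly1, the glycanase that processes NRF1, fell by 0.44 in WT and had 0.15 in LNCKO, and Mafg, a binding partner, fell by 0.34 in WT. Maff, another partner, was higher by 0.90 in WT, with 97 fragments in WT control and 196 in WT butyrate. Of 15 partners of the proteasome outside the symbol rule, such as ubiquitin shuttles, 1 was called in each genotype, against 19.8% of all genes in WT and 8.94% in LNCKO, namely Ubqln2 in WT at −0.36 and Ube3c in LNCKO at −0.35.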

How the data were processed

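RNA-seq of 4 samples, 1 per group, was analysed. The study's methods describe RNA extraction with TRIzol and sequencing on an MGISEQ-2000 in paired-end mode, whereas the labels describe Illumina protocols. The authors deposited FPKM values for 16375 genes in 1 table. The submitters' processing notes name STAR 2.5.0c, HTSeq 0.6.0 and the build GRCm38, with no role given. The deposited FPKM turned into whole fragments (within 0.02) in all 4 libraries for 98.5% of the genes when multiplied by the whole gene span in GENCODE M21 and a library total, so they are scaled by gene span and not by exon length. They were therefore compared between libraries as deposited, and between genes per exon base. Library totals were 56392029 for WT control, 59195293 for WT butyrate, and 53363945 and 65521714 for the control and butyrate libraries of LNCKO.

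Changes are log2 ratios of FPKM + 0.01 for genes with a mean of at least 0.1 FPKM, and a gene was called past 0.32 in either direction. With 1 library per group no test was made. Ratios have exact binomial (Clopper-Pearson) 95% intervals on the fragments, which cover counting error only, without pseudocount. Shares use the same method. The recovery of totals and the calling of changes were tested on simulated data, and the intervals were not. Alternatives were pseudocounts of 0.1, 1 and none, a filter of 1 FPKM or none, limits of 1.1-fold and 1.5-fold, scaling by the median ratio, the longest transcript as length, and Psme2 summed with Psme2b. The 1.1-fold limit, no pseudocount and the sum were chosen after seeing the data. The rule for named genes allowed every symbol matching the rule and every gene of the lists, of which 15 of 16 partners and 5 of 6 erythroid markers were in the table. The members and lists were chosen with earlier results of these data known. Promoter windows are from RefSeq (GRCm38.p6). Python 3.11.15, numpy 2.4.6, pandas 2.3.3 and scipy 1.17.1 were used. The library names of the LNCKO samples do not spell out the treatment, which was taken from the labels. A result of the interferon gamma list is not reported here.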

Additional observations from a re-analysis of the deposited data

Results flagged for a closer look

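For 4 proteasome genes the butyrate change had opposite signs in WT and LNCKO, and the counting interval excluded no change in both. The WT change minus the LNCKO change was −0.17 on the log2 scale for Psmb1, 0.21 for Psme3, 0.35 for Psmd3 and 0.49 for Psmg2. The signs were also opposite with the libraries rescaled by their median ratio. With 1 library per group the difference between the genotypes was not tested.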

How the results depend on the processing

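No called change reversed direction under the settings run, but counts of members past the limit are small and moved with most settings. A pseudocount of 1 gave 0 members lower with butyrate in WT, 0 higher in LNCKO control against WT control, and 0 higher and 0 lower in LNCKO butyrate against WT butyrate. A pseudocount of 0.1 gave 0 higher in the control comparison, and no pseudocount gave 2 higher in WT. A limit of 1.5-fold gave 0 members in every comparison and direction. At 1.1-fold, 8 were higher and 7 lower with butyrate in WT (all genes 20.3% and 32.8%), 1 and 3 in LNCKO (13.4% and 18.1%), 4 higher in the control comparison (19.8%), and 13 higher and 7 lower in the butyrate comparison (31.8% and 19.3%). Scaling by the median ratio gave 4 higher and 0 lower with butyrate in WT, 0 higher in the control comparison, and 0 higher and 2 lower in the butyrate comparison. Under it the constitutive median was 0.024 with butyrate in WT, on the other side of 0, and 0.011 in the butyrate comparison of genotypes, and the immunoproteasome medians were 0.25 and −0.21. With no filter, 1 member was lower in LNCKO with butyrate, and 2 higher and 1 lower in the control comparison. On the longest transcript the Psmb8 share was 70.5, 74.1, 70.0 and 71.1%, the Psmb9 share 35.3, 40.5, 35.7 and 36.7%, and the Psmb10 share 79.0, 76.9, 78.0 and 78.4% in the order WT control, WT butyrate, and then the LNCKO libraries. Of 196 single changes, 53 moved under the scaling and 7 under a pseudocount of 1. The causes were not tested. No paired analysis was possible because each group has 1 library, and no library could be left out for the same reason. Depth limits low members: Psmg3 had 579 to 842 fragments per library.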
